A study of Bos taurus with 18 samples.

Results

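The EGF family comprises small growth factors made as membrane-anchored precursors, and its receptors are EGFR, ERBB2, ERBB3 and ERBB4. The members described here were taken by symbol from the table of counts: the receptors EGFR, ERBB2, ERBB3 and ERBB4, and the ligands TGFA, BTC, AREG, EREG, HBEGF and EGF. Of these 10 symbols, 9 had a row among the 38001 genes of the table, each with a single identifier, and all 9 passed the filter on low counts with 19638 genes in all. EGF was not analysed here, because no row carried that symbol. The identifiers were ENSBTAG00000011628 (EGFR), ENSBTAG00000021798 (ERBB2), ENSBTAG00000010444 (ERBB3), ENSBTAG00000012647 (ERBB4), ENSBTAG00000000783 (TGFA), ENSBTAG00000004237 (BTC), ENSBTAG00000018134 (AREG), ENSBTAG00000010273 (EREG) and ENSBTAG00000021766 (HBEGF).

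Ligands are cut from the cell surface by ADAM proteases and bind EGFR, ERBB3 or ERBB4, which then pair with each other or with ERBB2, a receptor with no known ligand of its own. The pairs signal mainly through RAS, RAF, MEK and ERK and through PI3 kinase, and ERK activity induces phosphatases and Sprouty-type proteins that dampen the pathway. In the uterus the family is known for epithelial growth and, in several species, for ligands such as HBEGF and AREG that appear in the endometrium around the time an embryo attaches.

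The samples were 18 poly(A) RNA libraries of endometrium from 6 Holstein cows, 3 per cow. All cows were synchronized by the Ovsynch hormone protocol in both cycles, with day 0 the day of estrus, and a cytobrush was turned inside the uterine horn next to the corpus luteum. Each cow gave a day 4 and a day 7 sample in a first cycle without added progestogen (control), and a day 7 sample in a second cycle in which a progestogen was given on day 4 (treated). Animals A, B and C formed the 17-OHPC/P4 arm and received a depot of 100 mg of 17-hydroxyprogesterone caproate, a synthetic progestin ester, with 10 mg of progesterone. Animals D, E and F formed the P4 arm and received 100 mg of progesterone. The treated cycle always followed the control cycle, so treatment and cycle order cannot be told apart, and the arms hold different cows.

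Levels are given as CPM, counts scaled by the library total and a TMM factor, differences are log2 values with their standard error (SE), and a gene is called changed when its adjusted p lies under 0.05 (edgeR quasi-likelihood test, Benjamini-Hochberg over all 19638 genes). Total counts ran from 29347255 to 40733544 per library. The 8 general epithelial markers were all counted in every library, with a summed level of 2048 to 5730 CPM scaled by library size alone. The summed level of 8 stromal fibroblast markers ran from 108 to 6788 CPM and was highest in animal C, and that of 2 red cell markers from 0 to 4303 CPM, with its 3 highest values also in animal C. In these bulk samples fewer cells of a type and less RNA per cell cannot be told apart.

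Between day 4 and day 7 of the control cycle, 2 of the 5 ligands rose, TGFA and BTC, and none of the 4 receptors was called. TGFA encodes transforming growth factor alpha, a ligand of EGFR. It stood at 18.0, 23.8 and 16.1 CPM on day 4 in animals A, B and C, and at 26.1, 19.9 and 13.1 CPM in D, E and F. On day 7 the same animals had 36.5, 26.6 and 30.0 CPM, and 51.2, 35.4 and 24.4 CPM. Every animal was higher on day 7, with the smallest step in B, although day 7 of F lay below day 4 of D. The rise was 0.79 ± 0.23 (log2 difference ± SE, 6 animals, edgeR adjusted p = 0.0410), a 1.73-fold change.

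BTC encodes betacellulin, a ligand of EGFR and ERBB4. Its day 4 levels were 9.40, 18.3 and 8.86 CPM in A, B and C and 19.7, 15.2 and 15.5 CPM in D, E and F. Its day 7 levels were 37.5, 21.5 and 12.7 CPM and 35.9, 32.1 and 28.8 CPM. Every animal was higher on day 7, from a small step in B to the largest in A. In the P4 arm the days did not overlap, day 7 being the higher, as for 16.1% of all genes. The rise was 0.96 ± 0.26 (log2 difference ± SE, 6 animals, edgeR adjusted p = 0.0298), a 1.94-fold change. Among all genes tested, 6.27% were called higher on day 7, 10.6% were called in either direction, and 10.5% were higher in every animal, against 2 of 9 members both called higher and higher in every animal.

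Both calls held in all 6 alternatives that kept every library (adjusted p = 0.0104 to 0.0469 for TGFA and 0.00517 to 0.0483 for BTC), among them the fit that pairs the samples of a cow by a block (0.0175 and 0.0125). They were less secure against the loss of a library in the fit of group means. Leaving out 1 library at a time, TGFA kept its call in 4 of 12 fits and BTC in 5 of 12. The TGFA call was lost without A on day 4 (adjusted p = 0.0663) or day 7 (0.109), C on day 4 (0.0898) or day 7 (0.0512), D on day 7 (0.111), E on day 4 (0.0878) or day 7 (0.0701) and F on day 4 (0.0983). The BTC call was lost without A on day 4 (0.0557) or day 7 (0.0932), C on day 4 (0.0702), D on day 7 (0.0710), E on day 4 (0.0767) or day 7 (0.0573) and F on day 4 (0.0718). The log2 rise itself stayed between 0.68 and 0.92 for TGFA and between 0.71 and 1.16 for BTC in these fits. In the P4 arm the summed level of 6 cell division markers lay between 590 and 1229 CPM on day 4 and between 242 and 317 CPM on day 7. The 17-OHPC/P4 arm had sums of 117 to 749 CPM and 267 to 377 CPM. The sum of 7 T and NK cell markers was 175 to 339 CPM and then 84.9 to 118 CPM in the P4 arm, and 107 to 224 CPM and then 114 to 167 CPM in the other, and the part of either list in the rises was not tested.

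Of the marker genes, the division markers TOP2A and MKI67 fell from day 4 to day 7 over both arms, with log2 differences of -2.43 and -2.31, as did the T and NK cell markers IL2RB and CD3E (-0.88 and -0.80), while KRT14, a squamous keratin, rose by 2.58 (edgeR adjusted p = 0.00550 to 0.0475). These calls held in 3, 2, 9, 5 and 12 of the 12 fits without 1 library. TOP2A and MKI67 were each higher on day 7 in 2 of 6 animals, and IL2RB in 1 of 6. The division marker sum was higher on day 7 in B (117 and then 267 CPM) and C (215 and then 326 CPM), and lower in A, D, E and F. KRT14 was the only squamous marker called with edgeR. Scaled by library size alone, the sum of 4 squamous markers was lower on day 7 in A, C and F and higher in B, D and E. The step in F, from 15.3 to 12.9 CPM, turns to a slight rise with its TMM factors of 1.16 and 0.961. In the P4 arm MKI67 (-3.50), IL2RB (-1.52), CD3D (-1.29) and CD3E (-1.21) fell and KRT14 (3.93) rose. Treated day 7 of that arm stood lower than day 4 for MKI67 (-4.16), TOP2A (-4.14), BUB1 (-3.75) and CDK1 (-2.94) and higher for KRT14 (3.13). Within the P4 arm, KRT14 kept its day 7 call in 6 of 6 fits without 1 library, and the others theirs in 0 to 4 of 6. The treated calls held in 1 to 3 of 6.

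**Figure D1:**
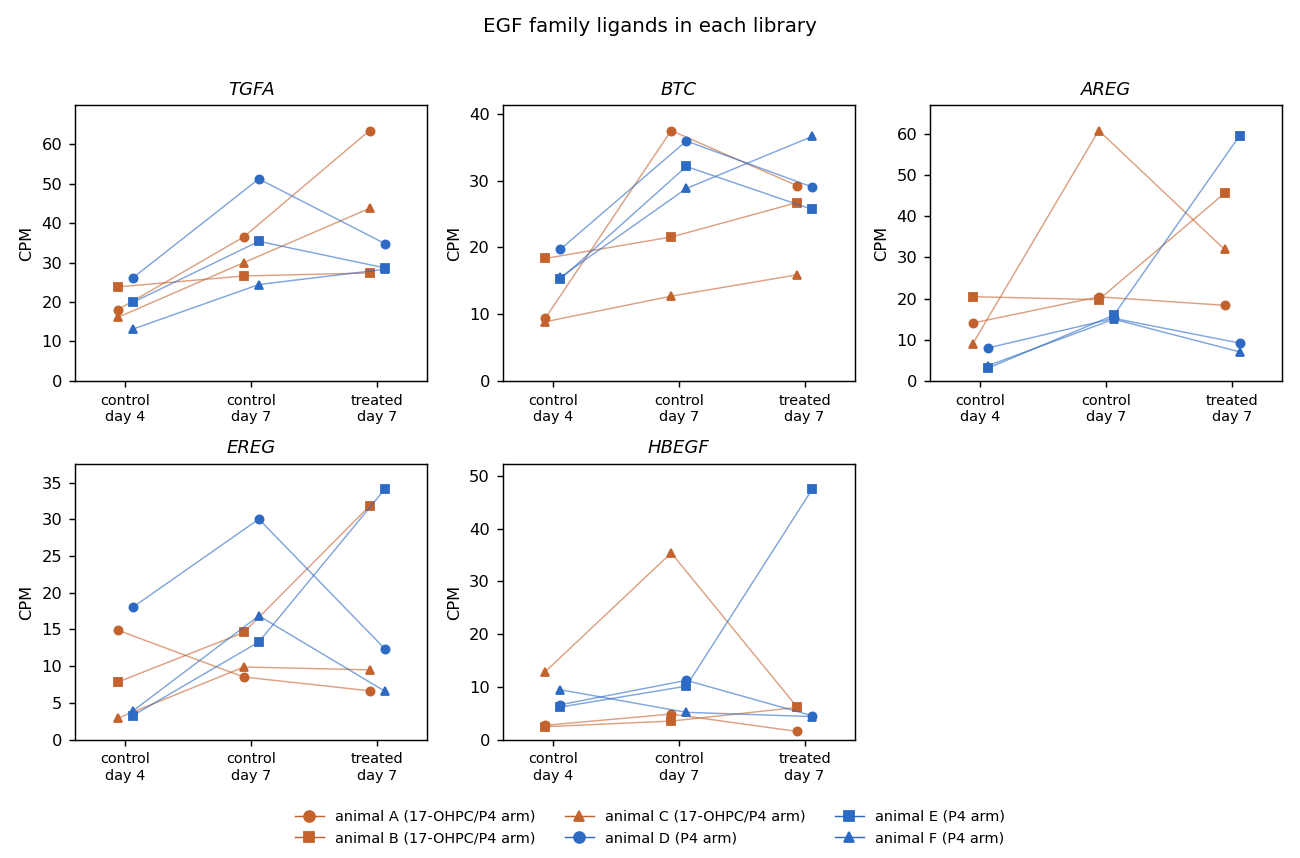
Level of each EGF family ligand (CPM, linear axes from 0) on control day 4, control day 7 and treated day 7. Each point is 1 library and each line 1 animal, orange for the 17-OHPC/P4 arm and blue for the P4 arm; TGFA and BTC lines all climb from day 4 to day 7, while AREG, EREG and HBEGF have a few libraries far above the rest.

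Within the arms the same rises were of like size. On day 7 of the P4 arm TGFA was 0.91 ± 0.33 and BTC 0.94 ± 0.36 higher (log2 difference ± SE), each in 3 of 3 animals, as were 23.6% of all genes. No member passed there with edgeR (adjusted p = 0.0950 and 0.117), while 8.65% of all genes were called, and 5 members and 26% of all genes lay under 0.05 unadjusted. With the animal as a block both ligands were called (adjusted p = 0.0403 for TGFA and 0.0456 for BTC), and 2975 of all genes were. DESeq2 called 2 members in that arm, TGFA and ERBB3, and limma voom 0. Over all genes DESeq2 called 3401 and limma voom 1860. In the 17-OHPC/P4 arm TGFA was 0.68 ± 0.33 and BTC 0.97 ± 0.36 higher on day 7 in 3 of 3 animals, as were 19.9% of all genes. No member passed in that arm with edgeR, DESeq2 or limma voom, 1 (BTC) lay under 0.05 unadjusted, and 0.0407% of all genes were called and 9.62% lay under 0.05 unadjusted. The rises did not differ detectably between the arms: the difference (17-OHPC/P4 minus P4) was -0.22 for TGFA (95% interval -1.21 to 0.76) and 0.03 for BTC (-1.06 to 1.12), intervals wide enough to hold a difference of the size of the rises.

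AREG, EREG and HBEGF, the other ligands with a row, varied widely between libraries and none was called in any of the 13 comparisons. AREG encodes amphiregulin, a ligand of EGFR. It stood at 14.0, 20.5 and 9.06 CPM on day 4 and 20.4, 19.7 and 60.8 CPM on day 7 in A, B and C. In D, E and F it stood at 7.999, 3.09 and 3.69 CPM on day 4 and 15.2, 16.0 and 15.0 CPM on day 7. AREG was higher on day 7 in 5 of 6 animals, all but B, and in the P4 arm the days did not overlap, day 7 being the higher, as for 16.1% of all genes. The difference was 1.43 ± 0.50 (log2 ± SE, edgeR adjusted p = 0.0829), and it was 1.05 ± 0.49 without animal C on day 7. DESeq2 called it (adjusted p = 0.0256), and so did edgeR fitted on the groups compared alone (0.0332).

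EREG encodes epiregulin, a ligand of EGFR and ERBB4. Its levels were 14.9, 7.85 and 2.93 CPM on day 4 and 8.53, 14.6 and 9.89 CPM on day 7 in A, B and C. In D, E and F they were 18.0, 3.29 and 3.92 CPM on day 4 and 30.0, 13.3 and 16.9 CPM on day 7. Day 7 was higher in 5 of 6 animals, all but A, yet the days overlapped, and the log2 difference of 0.81 ± 0.56 did not pass (edgeR adjusted p = 0.392).

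HBEGF encodes heparin-binding EGF-like growth factor, which binds EGFR and ERBB4. It stood at 2.73, 2.46 and 12.9 CPM on day 4 and 4.86, 3.52 and 35.4 CPM on day 7 in A, B and C. In D, E and F it stood at 6.62, 6.19 and 9.46 CPM on day 4 and 11.2, 10.2 and 5.18 CPM on day 7. Animal C was the highest of the 6 on both days. Day 7 was higher in 5 of 6 animals, all but F. The difference was 0.76 ± 0.72 (log2 ± SE, edgeR adjusted p = 0.546), 0.56 in the blocked fit, and -0.14 without C on day 7 in the fit of group means, which keeps C on day 4.

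On treated day 7 the highest library of all 3 of these ligands within the P4 arm was that of animal E. AREG stood at 18.4, 45.6 and 31.9 CPM in A, B and C and at 9.19, 59.6 and 7.04 CPM in D, E and F. EREG stood at 6.65, 31.8 and 9.51 CPM and at 12.4, 34.1 and 6.61 CPM. HBEGF stood at 1.57, 6.12 and 6.19 CPM and at 4.54, 47.5 and 4.38 CPM. Animal E was the highest of the 18 libraries for EREG and HBEGF and next to the highest for AREG, where animal C on control day 7 led. Animal B, the highest treated library of its arm for AREG and EREG, was not so for HBEGF.

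The 3 libraries with the highest AREG levels were also the 3 highest for FOS and EGR1, immediate early genes that ERK signalling induces, which were picked from the list of ERK targets after their values were seen. The order did not carry over to every ligand and library. FOS was at 939 CPM in animal C on control day 7, at 472 CPM in treated E and at 287 CPM in treated B, against a median of 17.6 CPM over the 18 libraries. EGR1 was at 865, 407 and 320 CPM in the same 3 libraries, against a median of 24.3 CPM. The fourth highest value of each was in animal F on control day 7 (206 CPM for FOS and 90.5 CPM for EGR1), where AREG, EREG and HBEGF stood at 15.0, 16.9 and 5.18 CPM. Animal D on control day 7, rank 3 of 18 for EREG and 4 for HBEGF, had FOS at 22.7 and EGR1 at 24.4 CPM, and treated C, rank 4 for AREG, had FOS at 12.4 and EGR1 at 24.2 CPM. C on control day 7 was only rank 10 for EREG, and so was treated B for HBEGF. In animal C on control day 7 the stromal markers summed to 4712 CPM and the red cell markers to 4303 CPM, and their part in the ligand levels was not tested. Treated E and B had red cell sums no higher than 4.20 CPM.

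**Figure D2:**
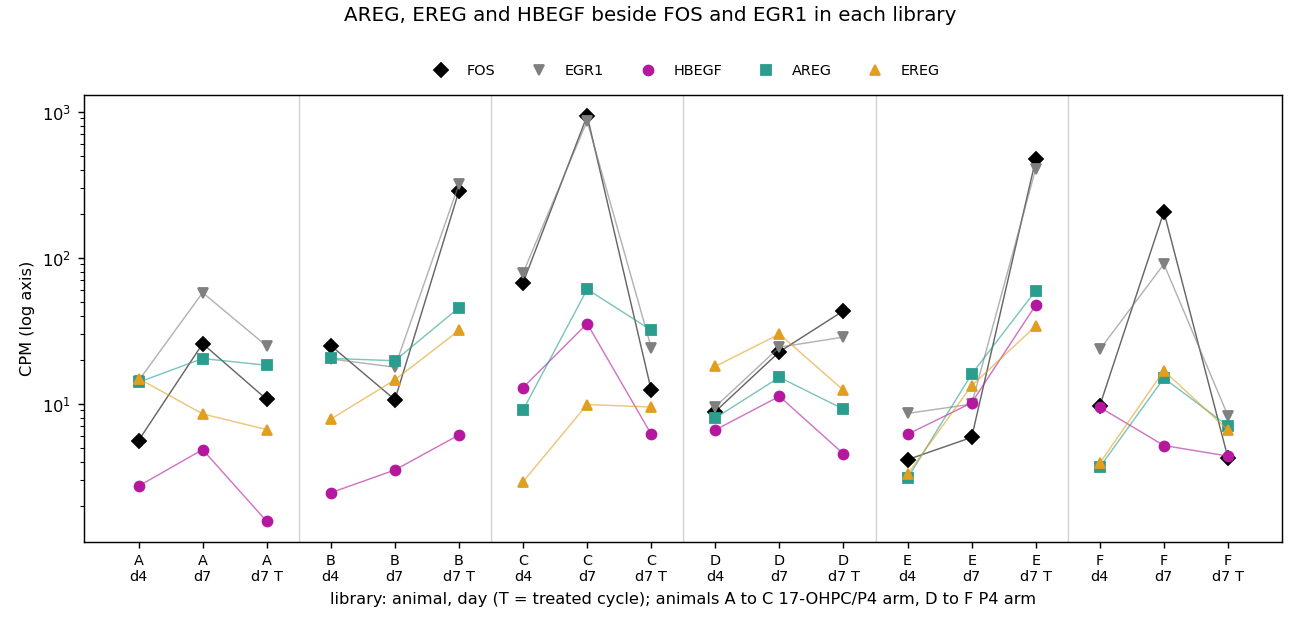
Level (CPM, log axis) of AREG, EREG and HBEGF beside FOS and EGR1 in all 18 libraries, grouped by animal in the order control day 4, control day 7 and treated day 7. FOS reaches 939 CPM in C on control day 7, 472 CPM in treated E and 287 CPM in treated B, the 3 libraries that also hold the highest AREG values.

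Across the 18 libraries, 3 from each cow, log2(CPM + 1) of AREG and EREG had a Pearson r of 0.60, and of HBEGF and AREG 0.37. Without animal C on control day 7 and treated E, a pair left out after the values were seen, r was 0.60 and -0.27 over the remaining 16. TGFA and BTC had an r of 0.63, and 0.67 without that pair. In the RefSeq annotation of assembly ARS-UCD2.0, used for gene order alone, EPGN, EREG, AREG and BTC follow each other with 0 protein-coding genes between neighbours, whereas TGFA and HBEGF are not in that run. AREG and BTC, adjacent there, had an r of 0.10.

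Among the receptors, ERBB2 and ERBB3 stood lower on day 4 in the animals of the 17-OHPC/P4 arm than in those of the P4 arm, before any progestogen was given. ERBB2 encodes the shared signalling partner of the other receptors. On control day 4 it stood at 225, 285 and 212 CPM in A, B and C and at 490, 519 and 406 CPM in D, E and F. The arms did not overlap, with means of 241 ± 38.9 and 472 ± 58.6 CPM (SD, n = 3). ERBB2 was called lower in the 17-OHPC/P4 arm, by -0.97 ± 0.18 (log2 difference ± SE, edgeR adjusted p = 0.0210). It was the only member called between arms at any time point with this test. In that comparison 1.46% of all genes were called lower and 2.76% in either direction, and 15.5% stood lower in all 3 animals of the arm than in any of the other.

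ERBB3 encodes a receptor for neuregulins whose own kinase is weak. It stood at 264, 372 and 388 CPM on control day 4 in A, B and C and at 506, 617 and 517 CPM in D, E and F. The arms did not overlap either, but the difference of -0.68 ± 0.24 did not pass (log2 ± SE, edgeR adjusted p = 0.114). DESeq2 called both ERBB2 and ERBB3 lower (adjusted p = 0.0420 for ERBB3), and called 2307 genes in all. The ERBB2 call was lost with the day 4 groups fitted alone (0.0891) and without C (0.0696), D (0.0630), E (0.108) or F (0.0514), each on day 4. The summed level of the epithelial markers also differed without overlap on that day, 3335 to 4538 CPM in the 17-OHPC/P4 arm and 4733 to 5730 CPM in the P4 arm. Their part in the receptor difference was not tested.

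From day 4 to day 7 of the control cycle both receptors moved in opposite directions in the arms. ERBB2 on day 7 stood at 259, 302 and 287 CPM in A, B and C and at 344, 334 and 331 CPM in D, E and F. ERBB3 on day 7 stood at 468, 408 and 456 CPM and at 291, 300 and 409 CPM. Against day 4, both were higher in 3 of 3 animals of the 17-OHPC/P4 arm and lower in 3 of 3 animals of the P4 arm, where 27.3% of all genes were lower in each animal, and by day 7 the ERBB2 levels of the arms lay closer together. Among all genes tested, 3.35% moved in opposite directions in the arms in every animal.

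In the 17-OHPC/P4 arm the change was 0.23 ± 0.18 for ERBB2 and 0.38 ± 0.23 for ERBB3 (log2 difference ± SE, edgeR adjusted p = 0.752 and 0.679). The P4 arm gave -0.49 ± 0.18 and -0.71 ± 0.24 (0.0975 and 0.0703). ERBB3 in the P4 arm was called lower by DESeq2 (0.0339) and without animal F on day 7 (0.0399). The difference between the arms in this change was 0.72 ± 0.25 for ERBB2 (unadjusted p = 0.0121, edgeR adjusted p = 0.558) and 1.09 ± 0.33 for ERBB3 (0.00505 and 0.538). Neither passed, and 0 of 19638 genes were called for this difference with edgeR, 1514 (7.71%) lay under 0.05 unadjusted, and DESeq2 called 88 genes and 0 members. Scaled by library size alone, the epithelial marker sum was lower on day 7 than on day 4 in all 6 animals. It stood at 3335, 4407 and 4538 CPM on day 4 and 2881, 3839 and 4031 CPM on day 7 in A, B and C. In D, E and F it stood at 4753, 5730 and 4733 CPM on day 4 and 2745, 2758 and 4391 CPM on day 7. With TMM factors, as used for the receptors, the sum was lower on day 7 in A to E but higher in F. The factors of F were 1.16 on day 4 and 0.961 on day 7. The part of the marker sum in the receptor changes was not tested.

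**Figure D3:**
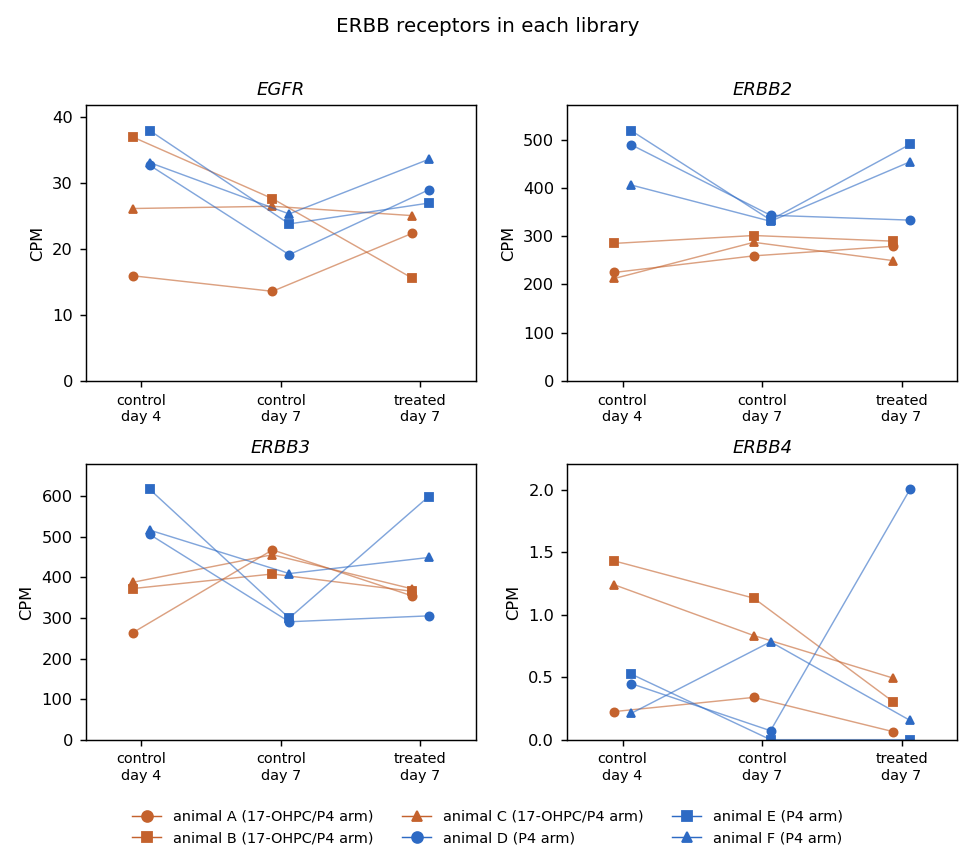
Level of each ERBB receptor (CPM, linear axes from 0) on control day 4, control day 7 and treated day 7. Points are libraries and lines join the samples of 1 animal; on control day 4 the ERBB2 and ERBB3 values of the P4 arm (blue) all lie above those of the 17-OHPC/P4 arm (orange), and the lines of the arms slope in opposite directions to control day 7.

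EGFR, the receptor for TGFA, AREG and EGF, stood at 15.9, 37.0 and 26.1 CPM on day 4 and 13.6, 27.6 and 26.5 CPM on day 7 in A, B and C. In D, E and F it stood at 32.7, 38.0 and 33.1 CPM on day 4 and 19.1, 23.8 and 25.3 CPM on day 7. Day 7 was lower in 5 of 6 animals, all but C, and the days did not overlap in the P4 arm. The difference was -0.41 ± 0.21 over both arms and -0.60 ± 0.30 in the P4 arm (log2 ± SE, edgeR adjusted p = 0.227 and 0.221), and neither passed.

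Within the P4 arm EGFR, ERBB2 and ERBB3 each had all 3 day 7 values below all 3 day 4 values, as did 18% of all genes tested in that arm. ERBB4, which binds neuregulins, BTC, EREG and HBEGF, had between 0 and 57 counts per library. It reached at most 1.43 CPM on day 4 (animal B), 1.13 CPM on control day 7 (animal B) and 2.01 CPM on treated day 7 (animal D). It was at 0 counts in animal E on control and treated day 7. If each count were an independent fragment, the limit that a count of 0 allows, 3 counts, would be 0.104 and 0.0872 CPM there. Over both arms ERBB4 differed by -0.38 ± 0.97 between day 7 and day 4 (log2 ± SE), ERBB2 by -0.13 and ERBB3 by -0.17. No ERBB4 difference was detectable, and its counts were low and varied widely between animals, with 57, 0 and 5 in treated D, E and F. Of its 16 counts above 0, 13 were even numbers, as were 78.3% of all counts from 1 to 20.

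Treatment was compared with control day 7 of the same animals, by group means that the main fit does not pair. No member passed in both arms together or in either arm, and neither did any other gene with edgeR, although 850 (4.33%), 371 (1.89%) and 596 (3.03%) genes lay under 0.05 unadjusted in the joint, 17-OHPC/P4 and P4 comparisons. Of the members, 0 lay under 0.05 unadjusted in each of these 3 comparisons, and DESeq2 and limma voom called 0 members (DESeq2 called 2, 1 and 2 genes in all). Called genes therefore made up 0% of all genes.

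On treated day 7 TGFA stood at 63.5, 27.4 and 43.7 CPM in A, B and C and at 34.8, 28.6 and 28.3 CPM in D, E and F. It was above control day 7 in 3 of 3 animals of the 17-OHPC/P4 arm, though barely in B, and in 1 of 3 of the P4 arm (F). The differences were 0.53 ± 0.33 and -0.27 ± 0.32 (log2 ± SE), with 95% intervals of -0.16 to 1.23 and -0.97 to 0.42. In the 17-OHPC/P4 arm 19.4% of all genes were higher in every treated animal. BTC stood at 29.2, 26.7 and 15.9 CPM in A, B and C and at 29.04, 25.7 and 36.6 CPM in D, E and F, a difference from control day 7 of 0.00 ± 0.36 and -0.08 ± 0.36 (95% intervals -0.77 to 0.77 and -0.86 to 0.69).

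ERBB3 on treated day 7 stood at 355, 366 and 372 CPM in A, B and C and at 305, 599 and 449 CPM in D, E and F. It was below control day 7 in 3 of 3 animals of the 17-OHPC/P4 arm without overlap, as were 4.57% of all genes, and above it in 3 of 3 animals of the P4 arm, as were 9.96%, with the largest step in E. The differences were -0.29 ± 0.23 and 0.44 ± 0.23, and the difference between them -0.72 ± 0.33 (log2 ± SE, unadjusted p = 0.0456, edgeR adjusted p = 0.99998). Such opposite movement in every animal was seen in 2.36% of all genes, and 0 genes were called for the difference between the arms with edgeR or DESeq2, with 247 (1.26%) under 0.05 unadjusted. Since both this difference and that of the day 4 to day 7 change use the control day 7 libraries, they are not independent.

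ERBB2 on treated day 7 stood at 279, 290 and 249 CPM in A, B and C and at 334, 491 and 455 CPM in D, E and F. Against control day 7 it differed by -0.05 ± 0.18 and 0.34 ± 0.18 (log2 ± SE), and it was higher in A, E and F and lower in B, C and D. EGFR stood at 22.4, 15.6 and 25.1 CPM in A, B and C and at 28.97, 27.0 and 33.6 CPM in D, E and F. Every treated P4 animal exceeded every control day 7 animal of its arm for EGFR, as did 3.34% of all genes, but the difference of 0.39 ± 0.30 did not pass (edgeR adjusted p = 1). For AREG, EREG and HBEGF the treated minus control differences over both arms were 0.32 ± 0.49, 0.18 ± 0.56 and -0.29 ± 0.71, each higher in 2 of 6 animals, B and E. For TGFA, BTC, EGFR, ERBB2 and ERBB3 it was 0.13, -0.04, 0.14, 0.15 and 0.08 over both arms, and for ERBB4 -0.06 ± 0.98.

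**Figure D4:**
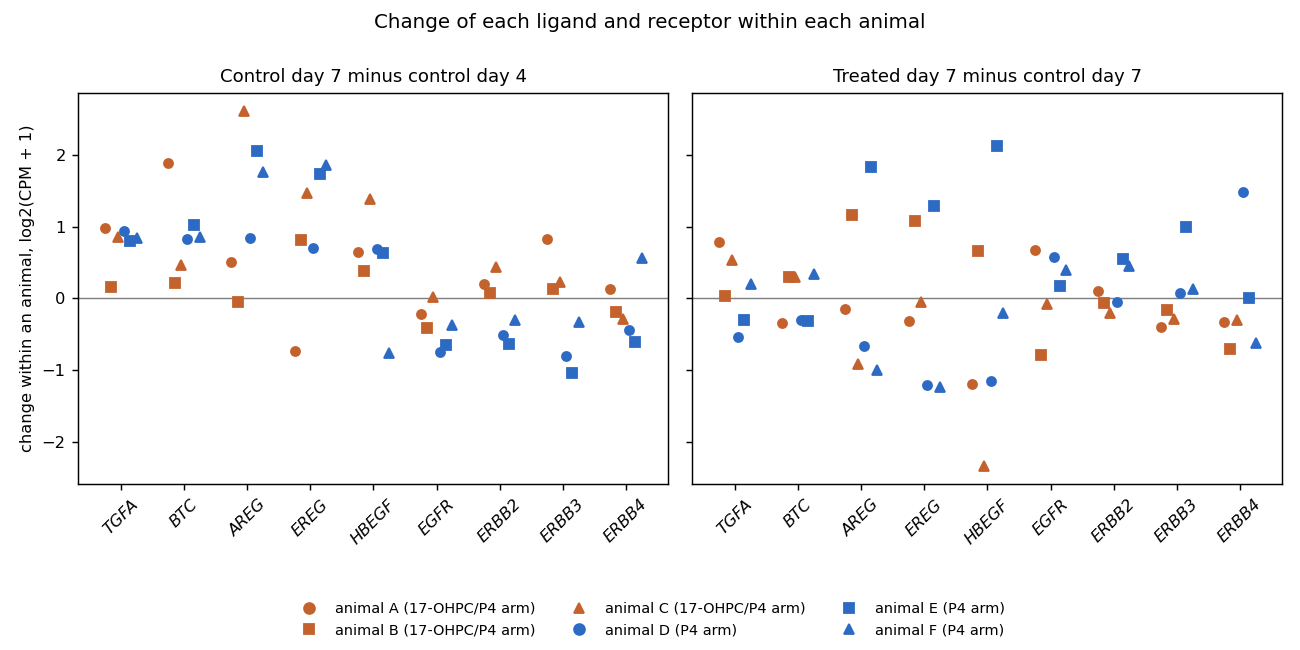
Change within each animal on the log2(CPM + 1) scale for the 9 members, from control day 4 to control day 7 (left) and from control to treated day 7 (right). Each point is 1 animal, orange for the 17-OHPC/P4 arm and blue for the P4 arm; TGFA and BTC lie above 0 in all 6 animals on the left, and on the right ERBB3 lies below 0 in the 3 orange and above 0 in the 3 blue animals.

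Treated day 7 against control day 4 joins the passing of 3 days with the treatment, and shares its libraries with the comparisons above. In the 17-OHPC/P4 arm TGFA was 1.21 ± 0.33 higher (log2 difference ± SE) in 3 of 3 animals without overlap, as were 10.9% of all genes, a 2.32-fold difference that did not pass (edgeR adjusted p = 0.0915). It was called with the animal as a block (0.0338) and by DESeq2 (0.0132). BTC was 0.97 ± 0.36 higher there (0.175). The other members differed by 1.14 (AREG), 0.90 (EREG), -0.38 (HBEGF), -0.33 (EGFR), 0.18 (ERBB2), 0.09 (ERBB3) and -1.73 (ERBB4), with adjusted p from 0.359 to 0.838. With edgeR 0.682% of all genes and 0 members were called, and 2 members and 20.5% of all genes lay under 0.05 unadjusted. DESeq2 and limma voom called 1 and 0 members, and 1533 and 114 of all genes.

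In treated P4 animals AREG was 2.36 ± 0.74 higher than on day 4 in 3 of 3 (log2 difference ± SE, edgeR adjusted p = 0.0640), as were 22.1% of all genes, and DESeq2 called it (0.00818). Without treated E the AREG difference was 0.74 ± 0.54. BTC was 0.85 ± 0.36 higher in 3 of 3 animals without overlap (0.163), as were 16.5% of all genes, and passed with the groups compared fitted alone (0.0414). TGFA was 0.63 ± 0.33 higher, likewise without overlap (0.252). The other members differed by 1.07 (EREG), 1.34 (HBEGF), -0.21 (EGFR), -0.15 (ERBB2), -0.28 (ERBB3) and 0.85 (ERBB4), with adjusted p from 0.446 to 0.752. With edgeR 7.48% of all genes and 0 members were called in this comparison, and 2 members and 24.3% of all genes lay under 0.05 unadjusted. DESeq2 and limma voom called 1 and 0 members, and 2984 and 1700 of all genes.

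The 17-OHPC/P4 and P4 arms were also compared directly on treated day 7, where the injections differed both in compound and in dose of progesterone. Of the 9 members, 0 were called with edgeR and with limma voom, and 0.0102% of all genes (2 genes). ERBB2 was lower in the 17-OHPC/P4 arm without overlap, by -0.64 ± 0.18 (log2 difference ± SE, 95% interval -1.03 to -0.26, unadjusted p = 0.00272, edgeR adjusted p = 0.292), as 7.08% of all genes were lower without overlap. DESeq2 called it (0.0434), and it was the only member under 0.05 unadjusted, with 9.13% of all genes. The arms stood in the same order for ERBB2 on both control days, by -0.97 ± 0.18 on day 4 and -0.25 ± 0.18 on day 7.

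The other members differed between treated arms by amounts that their errors cover. TGFA differed by 0.55 (95% interval -0.14 to 1.25), BTC by -0.35 (-1.12 to 0.43), EGFR by -0.51 (-1.15 to 0.13) and ERBB3 by -0.31 (-0.81 to 0.19). AREG differed by 0.34 (-1.15 to 1.83), EREG by -0.15 (-1.83 to 1.54) and HBEGF by -2.02 (-4.26 to 0.21), the last with treated E at 47.5 CPM. ERBB4, at its few counts, differed by -1.30 (-4.30 to 1.71). On control day 7, before treatment, 0 members were called (edgeR, DESeq2 and limma voom, with 0 under 0.05 unadjusted), against 0.00509% of all genes called and 10.6% under 0.05 unadjusted. AREG was higher in all 3 animals of the 17-OHPC/P4 arm than in any of the P4 arm on both control days, as 15.6% of genes were on day 4 and 7.1% on day 7, by 1.56 ± 0.72 and 1.13 ± 0.71 (edgeR adjusted p = 0.219 and 0.587). ERBB3 differed by 0.41, TGFA by -0.25, BTC by -0.43, EGFR by -0.01, EREG by -0.87, HBEGF by 0.72 and ERBB4 by 1.39 on control day 7 (17-OHPC/P4 minus P4, log2, adjusted p from 0.549 to 0.995). On control day 4 TGFA differed by -0.03, BTC by -0.46, EGFR by -0.39, EREG by 0.02, HBEGF by -0.30 and ERBB4 by 1.28 (adjusted p from 0.454 to 0.991).

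The remaining ligands of the family, NRG1, NRG2, NRG3, NRG4 and EPGN, had 6 rows, NRG1 having a pair of identifiers. NRG2 ran from 0.952 to 7.81 CPM and EPGN (epigen) from 0.199 to 1.52 CPM over the 18 libraries, and the rows of NRG1, NRG3 and NRG4 reached at most 2.53 CPM. With edgeR, DESeq2 and limma voom 0 of the 6 rows were called between day 4 and day 7 or between treated and control over both arms, with 0 under 0.05 unadjusted.

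Of 12 genes of ligand shedding and delivery, 1 rose from day 4 to day 7 over both arms, ADAM10, a protease that releases BTC and EGF from the cell surface. That share of the list lay near the background, 6.27% of all genes called higher and 10.6% in either direction. ADAM10 stood at 159, 109 and 92.0 CPM on day 4 and 383, 201 and 218 CPM on day 7 in A, B and C. In D, E and F it stood at 235, 168 and 126 CPM on day 4 and 779, 467 and 375 CPM on day 7. Every animal was higher on day 7, by 1.39 ± 0.32 over both arms and 1.61 ± 0.46 in the P4 arm (log2 difference ± SE, edgeR adjusted p = 0.0162 and 0.0435). The first call was lost only without A on day 7 (0.0514). The second was lost without D or E on either day, or without F on day 4 (up to 0.185). The list's median difference was -0.08 against -0.05 for all genes.

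Of 18 negative regulators of ERBB signalling, 4 rose over both arms and 0 fell, where 6.27% of all genes were called higher and 10.6% in either direction, with a list median of 0.13 against -0.05 for all genes. DUSP4, a phosphatase that inactivates ERK, stood at 1.58, 2.18 and 5.88 CPM on day 4 and 27.7, 19.0 and 14.2 CPM on day 7 in A, B and C. In D, E and F it stood at 2.22, 4.12 and 4.74 CPM on day 4 and 30.9, 43.3 and 13.3 CPM on day 7. Every day 7 value exceeded every day 4 value, and DUSP4 rose by 2.82 ± 0.42 (log2 difference ± SE, edgeR adjusted p = 0.00185), 2.32% of all genes being higher without overlap.

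SPRED1, an inhibitor of RAS signalling, rose by 1.25 ± 0.29 in 6 of 6 animals (adjusted p = 0.0159), SPRY1, a Sprouty protein, by 0.77 ± 0.16 in 5 of 6 (0.0104), and DUSP6, another ERK phosphatase, by 0.99 ± 0.26 in 6 of 6 (0.0246). The DUSP4, SPRED1 and SPRY1 calls held in all 12 fits that left out 1 library, and DUSP6 in 5 of 12. The DUSP6 call was lost without A on day 7, B or C on day 4, D on day 7, E on either day or F on day 4 (up to 0.0782). Within the P4 arm, where 8.65% of all genes were called in either direction, 3 of the 18 rose, DUSP4 by 2.98 ± 0.60, SPRED1 by 1.59 ± 0.41 and SPRY1 by 1.04 ± 0.23. DUSP4 and SPRY1 were also called higher on treated day 7 than on day 4 in that arm, by 2.64 ± 0.59 and 1.31 ± 0.23. In that comparison 7.48% of all genes were called in either direction.

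Those calls within the P4 arm were less secure. The day 7 calls held in 5 of 6 fits without 1 library for DUSP4 (lost without E on day 4), 1 of 6 for SPRED1 (kept without F on day 7) and 2 of 6 for SPRY1 (kept without E or F on day 7). The treated calls held in 2 of 6 fits for DUSP4, lost without any day 4 library or treated F, and in 5 of 6 for SPRY1, lost without E on day 4. In the 17-OHPC/P4 arm 0 of the 18 were called on day 7 with edgeR and limma voom, 4 lay under 0.05 unadjusted, and DESeq2 called 1. Of all genes, 9.62% lay under 0.05 unadjusted in that comparison, and DESeq2 called 409.

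**Figure D5:**
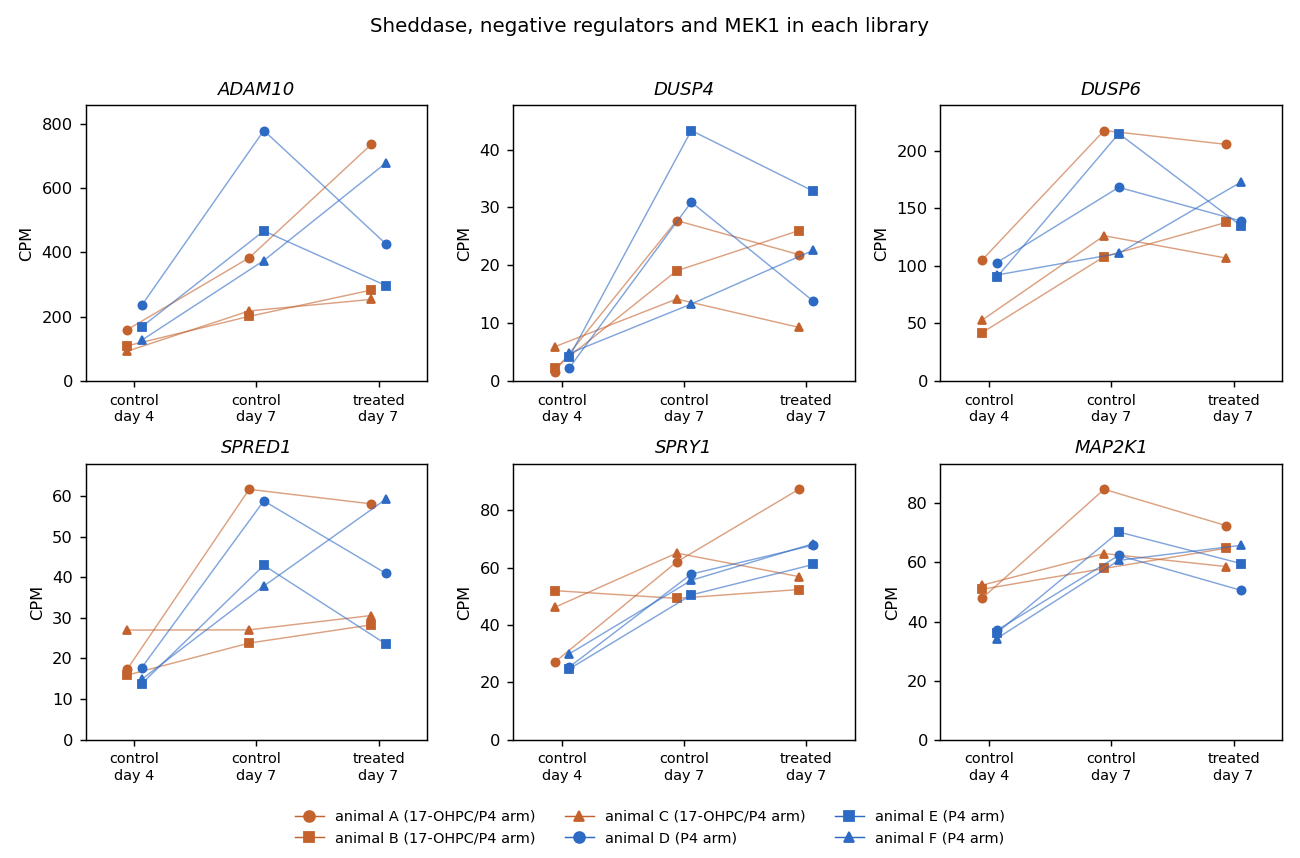
Level (CPM, linear axes from 0) of ADAM10, of the negative regulators DUSP4, DUSP6, SPRED1 and SPRY1, and of MAP2K1, on control day 4, control day 7 and treated day 7. Points are libraries and lines join the samples of 1 animal, orange for the 17-OHPC/P4 arm and blue for the P4 arm; DUSP4 lies at or below 5.88 CPM in every day 4 library and at or above 9.26 CPM in every later one.

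Of 23 adaptors and kinases of the pathway, 4 rose and 2 fell from day 4 to day 7 over both arms, where 6.27% of all genes were called higher and 10.6% in either direction. MAP2K1, the kinase MEK1 that activates ERK, rose by 0.65 ± 0.11 in 6 of 6 animals (log2 difference ± SE, edgeR adjusted p = 0.00315). PIK3R1, a regulatory subunit of PI3 kinase, fell by 0.84 ± 0.17 in 6 of 6 animals (0.00835). Both calls held in all 12 fits that left out 1 library. PIK3R3, another regulatory subunit (1.38 ± 0.42, adjusted p = 0.0494), PIK3CB, a catalytic subunit (0.96 ± 0.28, 0.0421), and HRAS (0.56 ± 0.16, 0.0363) also rose.

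PTPN11, the phosphatase SHP2, fell by 0.54 ± 0.14 (log2 difference ± SE, edgeR adjusted p = 0.0267). These calls held in 1, 5, 4 and 4 of the 12 fits for PIK3R3, PIK3CB, HRAS and PTPN11. PIK3R3 kept its call only without C on day 7 and was not called with the animal as a block (adjusted p = 0.0797). Each of the 4 lost it without A, D or E on day 7 and without C, E or F on day 4, and the further libraries differed by gene. In the P4 arm, against 8.65% of all genes called, MAP2K1 (0.85 ± 0.15, called in 6 of 6 fits without 1 library) and HRAS (0.92 ± 0.23, 1 of 6) rose, and PIK3R1 (-0.97 ± 0.24, 1 of 6) and BRAF (-0.57 ± 0.17, 0 of 6) fell. On treated day 7 of that arm ARAF, a RAF kinase, was 1.26 ± 0.35 and MAP2K1 0.71 ± 0.15 higher than on day 4 (edgeR adjusted p = 0.0431 and 0.0174), against 7.48% of all genes called. ARAF kept this call in 1 of 6 fits, without D on day 4, and MAP2K1 lost it without E or F on day 4 or treated F.

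Of 12 transcriptional targets of ERK, 0 were called between day 4 and day 7 over both arms with edgeR, 5 lay under 0.05 unadjusted, and DESeq2 and limma voom called 4 and 1. Of all 19638 genes, 10.6% were called with edgeR and 26.9% lay under 0.05 unadjusted. DESeq2 called 3525 of them and limma voom 2181. The median difference of the ERK targets was 0.48, against -0.05 for all genes. Between treated and control day 7 over both arms, 0 members of the shedding, negative regulator, kinase and ERK target lists were called with edgeR, DESeq2 or limma voom, with 1, 0, 0 and 0 under 0.05 unadjusted.

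For the 3 members that were called, the genes with the most similar levels over the 18 libraries were taken from 14619 genes with a symbol of their own, by Pearson r of log2(CPM + 1). TGFA was closest to ENPP5, TEX28 and DNTTIP2 (r = 0.88 each), and 4.84% of candidates exceeded an r of 0.7. BTC was closest to LAMP2 (0.94), TMBIM4 (0.93) and MSMO1 (0.93), with 6.72% of candidates above 0.7. ERBB2 was closest to PGAP3 (0.95), POMT1 (0.94) and PLXNB2 (0.93), with 3.52% above 0.7. PGAP3 neighbours ERBB2 in the RefSeq annotation with 0 protein-coding genes between them and no overlap of their spans. The receptors ERBB2 and ERBB3 had an r of 0.63 with each other. The 18 points share cows and libraries, so these values describe this set of samples.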

How the data were processed

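Poly(A) RNA of 18 cytobrush samples was sequenced as paired reads, per the labels' protocols. The deposited table holds counts per gene, not normalized by the authors, and the tools cutadapt, FastQC, STAR, featureCounts and DESeq2 appear in the submitters' processing notes without versions. Genome build, annotation, strand setting and pair counting were not given in the sources used here. Low counts were mostly even, so the number of independent fragments may lie below the count. The table held 0 columns of other samples, and 0 of 153 library pairs were identical.

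After filterByExpr, 13 comparisons were tested in a single quasi-likelihood fit of edgeR 4.0.16 (R 4.3.3) with 1 mean for each of 6 groups over all 18 libraries, TMM factors being 0.881 to 1.16. Benjamini-Hochberg adjustment ran over 19638 genes. The SE is the log2 difference divided by the square root of its F value. Changes within an animal use log2(CPM + 1). Scripts were tested on simulated data. The members, the gene lists and the marker lists were chosen with earlier results of these data known. The rule for named genes took all members in every comparison, up to 4 called genes per other list and comparison (largest difference) and the 3 genes most similar to each called member. Within arms and for differences between arms, some member differences that did not pass are not printed; HRAS, PTPN11, FOS and EGR1 are named outside the rule. Replicates are separate cows within an arm. The animal letter marks the same cow in all 3 samples, so samples pair by the labels. Deviations of same-letter samples from their group means had a correlation from -0.20 to 0.77 (median 0.44, 11 of 18 pairs over 0.1). The correlation ran from 0.47 to 0.77 in animals A to C but only from -0.20 to 0.41 in D to F.

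Alternatives were DESeq2 1.42.0 and its size factors, limma 3.58.1 voom, no filter on low counts, scaling of levels by library size alone, the animal as a block, the compared groups fitted alone, and each library left out. Gene order comes from the RefSeq annotation of ARS-UCD2.0, which matched 0 of the table's identifiers and all 10 symbols.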

Additional observations from a re-analysis of the deposited data

Results flagged for a closer look

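In the untreated day 7 samples animal C stood far from the other 5 cows for HBEGF, at 35.4 CPM against 3.52 to 11.2 CPM, and for AREG, at 60.8 CPM against 15.0 to 20.4 CPM. These were 2 of 18 sets of 6 samples examined in this way, and both flags came from the same library. The cutoff is meant to flag about 1 in 20 sets of normally distributed values, a rate not checked for these CPM values.

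ERBB2 and ERBB3 changed from day 4 to day 7 in opposite directions in the arms in every animal, with differences between the arms (17-OHPC/P4 minus P4) of 0.72 and 1.09 on the log2 scale. ERBB3 also moved in opposite directions in every animal from control to treated day 7, with a difference of -0.72. The edgeR test of each difference did not pass (adjusted p = 0.558, 0.538 and 0.99998), and the control day 7 libraries enter all 3.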

How the results depend on the processing

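Counts of called members changed as follows, and the cause was not tested. For day 7 against day 4 over both arms, 2 members were called, 3 with DESeq2 and 3 with the compared groups alone (AREG added), and 0 to 2 without 1 library. In the P4 arm 0 were called, but 2 with DESeq2, 2 with the animal as a replicate block, 1 with the compared groups alone and 0 to 2 without 1 library. For treated day 7 against day 4, 0 were called in either arm, but in the 17-OHPC/P4 arm 1 with DESeq2 and 1 with the replicate block, and in the P4 arm 1 with DESeq2 and 1 with the compared groups alone. Between arms, treated day 7 had 0 and 1 with DESeq2, and control day 4 had 1, with 2 in DESeq2, 0 in the groups fitted alone and 0 to 1 without 1 library. The paired fit with the block changed no other count of members. Over all genes the background calls moved more. Day 7 against day 4 had 2073 calls over both arms, 3525 with DESeq2 and 3272 with the replicate block, 8, 409 and 108 in the 17-OHPC/P4 arm, and 1698, 3401 and 2975 in the P4 arm. Treated day 7 against day 4 had 134, 1533 and 1029 in the 17-OHPC/P4 arm and 1468, 2984 and 2702 in the P4 arm. Control day 4 between arms had 542, 2307 with DESeq2, 187 without the filter and 0 with the groups alone, and DESeq2 gave 215 on treated and 365 on control day 7 against 2 and 1. With the groups alone the 17-OHPC/P4 arm had 0 calls in both comparisons with day 4. Without 1 library, day 7 against day 4 had 945 to 3192 calls over both arms, 1 to 136 in the 17-OHPC/P4 arm and 271 to 2301 in the P4 arm, treated day 7 against day 4 had 3 to 1018 and 56 to 1455, control day 4 between arms had 25 to 355, and control day 7 between arms had 0 or 1 except without animal F, with 264. The difference in the day 4 to day 7 change between arms had 0 calls and 88 with DESeq2. Of 117 pairs of a member and a comparison, 68 kept their sign in every alternative and 7 changed it in a setting other than leaving out a library; 0 called differences reversed. DESeq2 size factors moved the median of all genes by at most 0.05, and library size alone moved 4 of 54 group means by more than 1 SD. There were 3 cows per arm, and the biological coefficient of variation common to all genes was 51.4%, which is not a value for TGFA or any other single gene. The TGFA rise over both arms, 0.79 ± 0.23 (log2 difference ± SE), sat near the threshold (edgeR adjusted p = 0.0410). ERBB4, with low counts that varied between animals, gave no usable precision.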
